A study of Arabidopsis thaliana with 6 samples.

Results

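The alpha-expansins described here are 10 genes of Arabidopsis thaliana: EXPA1 (AT1G69530), EXPA2 (AT5G05290), EXPA3 (AT2G37640), EXPA4 (AT2G39700), EXPA5 (AT3G29030), EXPA6 (AT2G28950), EXPA8 (AT2G40610), EXPA10 (AT1G26770), EXPA11 (AT1G20190) and EXPA15 (AT2G03090). They were selected on their heat and control log2 values and taken by locus through the gene identifiers of the authors' deposited table. Each of the 10 loci had 1 probe set (the array's oligonucleotides for a transcript), which matched no other locus, out of 20242 loci with such a probe set. Heat seedlings were Col-0 wild type exposed to 37 °C for 30 min in darkness (3 arrays), and control seedlings were Col-0 wild type kept in darkness without heat (3 arrays). The plants of both groups had been chilled as seeds at 4 °C for 72 h and raised at 23 °C on Murashige and Skoog plates, in days of 16 h light. The design text gives an age of 10 days, whereas the sample labels give 19, 20 and 21 days to heat replicates 1 to 3 and 16, 17 and 18 days to control replicates 1 to 3, so that age as labelled and treatment run together. The design also names groups treated in light, which were not analysed here.

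Expansins are small secreted proteins of the plant cell wall. They let cellulose microfibrils slip past one another when the wall turns acid, without cutting its polymers, so that a cell under turgor can enlarge. Alpha-expansins form the largest branch of the family, with members used in leaves, stems, roots, root hairs and germinating seeds. Beta-expansins and the expansin-like proteins are the other branches.

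Arrays of the same group resembled each other more than arrays of different groups, with Pearson correlations over all probe sets of 0.989 to 0.991 among heat arrays, 0.976 to 0.988 among control arrays and 0.941 to 0.954 between them. The disaggregase HSP101, a standard heat-induced chaperone, averaged 11.02 ± 0.11 in heat seedlings and 2.83 ± 0.48 in control seedlings on the log2 scale (SD, n = 3 arrays each). Shoot RNA was present on every array: the probe set that includes the Rubisco small-subunit gene RBCS1A read 11.99 to 12.14 in heat seedlings and 12.08 to 12.33 in control seedlings. Root RNA was present as well, since the root-expressed beta-glucosidase gene PYK10 read 8.86 to 9.38 in heat seedlings and 9.86 to 10.74 in control seedlings. The root hair gene COBL9 read 2.50 to 2.797 in heat seedlings and 2.30 to 2.76 in control seedlings, below or near the array medians (2.78 to 2.95). Seedling RNA cannot tell fewer expansin-expressing cells from less transcript per cell.

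Of the 10 alpha-expansins, 9 were lower on average in heat seedlings and 1, EXPA2, was higher. Differences between the group means ran from -2.58 (EXPA1) to 0.37 (EXPA2) on the log2 scale, with a median of -1.19, against -0.01 over all 22746 probe sets tested. In 7 members all heat arrays lay below all control arrays, in 3 the groups overlapped, and in 0 did heat lie wholly above control, whereas 15.8% of all probe sets had every heat array below every control array and 10.4% every heat array above. The log2 difference was -1 or lower in 5 members and 1 or higher in 0, where 2.17% of all probe sets were that low and 1.82% that high. In the limma fit over all probe sets, 5 members passed as lower at an adjusted p of 0.05 and 0 as higher, against 4.00% and 2.34% of all probe sets. Because the genes were proposed with these same differences known, the counts describe the set and carry no test.

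EXPA1, EXPA4, EXPA11 and EXPA15 formed the lower end of the range. EXPA1, which takes part in stomatal opening in guard cells among other roles, read 4.57, 4.35 and 4.56 in heat seedlings (replicates 1 to 3), against 7.26, 6.92 and 7.04 in control seedlings. The highest heat array lay 2.35 below the lowest control array, and the arrays of each group stood close together. Its mean was 4.50 ± 0.12 in heat seedlings and 7.07 ± 0.17 in control seedlings, a difference of -2.58 (moderated SE 0.13), or a 5.96-fold lower level. The authors' deposited table sets same-numbered arrays against each other. For EXPA1 its ratios of heat over control were nearly equal, at 0.156, 0.169 and 0.179. Whether the replicate numbers pair the arrays is not known.

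EXPA4 read 4.43, 4.55 and 4.49 in heat seedlings, against 7.05, 5.88 and 6.34 in control seedlings. Its heat arrays lay within 0.12 of each other on the log2 scale while its control arrays spread over 1.17, so its difference of -1.93 (SE 0.27, 3.82-fold lower) varied with the control array it was set against. Ratios of heat over control in the authors' deposited table were 0.162, 0.398 and 0.278 for EXPA4. EXPA15 behaved alike and more loosely: it read 4.54, 3.93 and 4.51 in heat seedlings, against 6.74, 5.24 and 6.32 in control seedlings. Control replicate 2 was again the lowest control, and heat replicate 2 the lowest heat array. The EXPA15 difference was -1.77 (SE 0.37, 3.42-fold lower), with a span of 1.50 among the control arrays alone.

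EXPA11 had a small spread in both groups. It read 3.49, 3.35 and 3.50 in heat seedlings, against 5.10, 4.67 and 4.999 in control seedlings. The groups were separated by 1.17, more than the 0.43 between the highest and lowest control arrays. Its difference of -1.48 (SE 0.14, 2.78-fold lower) came with ratios of heat over control of 0.329, 0.400 and 0.353 in the authors' deposited table.

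**Figure D1:**
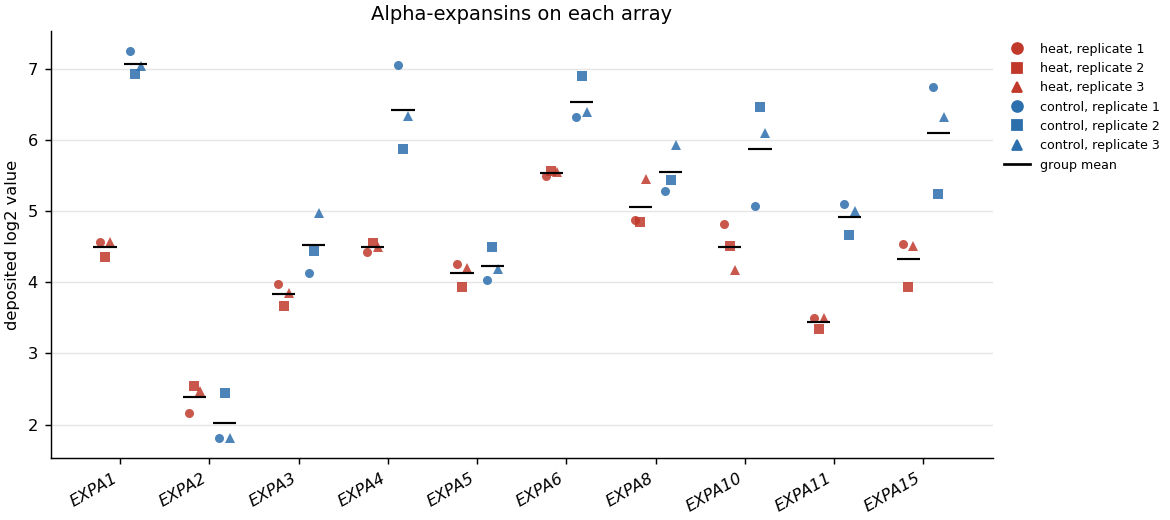
Deposited log2 value (vertical axis) of each of the 10 alpha-expansins (horizontal axis) on each array, with heat arrays in red to the left of control arrays in blue. Each symbol is 1 array, its shape gives the replicate number and the black bar is the group mean; the groups are fully apart in 7 genes and overlap in EXPA2, EXPA5 and EXPA8.

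EXPA6 and EXPA10 were lower in heat seedlings too, with opposite spreads. EXPA6 read 5.50, 5.56 and 5.55 in heat seedlings, against 6.32, 6.90 and 6.39 in control seedlings. The heat arrays agreed to within 0.06, and the gap between the groups was 0.76. The EXPA6 difference of -0.9999 (SE 0.17) lay just short of -1. Its ratios of heat over control in the authors' deposited table were 0.566, 0.395 and 0.560. EXPA10, which promotes leaf and petiole growth, read 4.82, 4.52 and 4.17 in heat seedlings, against 5.08, 6.46 and 6.09 in control seedlings. Control replicate 1 lay far below the other control arrays, within 0.26 of the highest heat array. Its difference was accordingly loose, at -1.38 (SE 0.34, 2.60-fold lower), and was -1.78 without control replicate 1. For EXPA10 the authors' deposited table gave ratios of heat over control of 0.836, 0.260 and 0.263.

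The remaining members differed less, and most of them overlapped between the groups. EXPA3 read 3.98, 3.67 and 3.84 in heat seedlings, against 4.14, 4.44 and 4.98 in control seedlings. All heat arrays were below all control arrays, but by only 0.16, and the difference was -0.69 (SE 0.21). The authors' deposited table gave EXPA3 ratios of heat over control of 0.896, 0.584 and 0.456, so that replicate 1 differed least, as in EXPA10. EXPA8 read 4.88, 4.85 and 5.45 in heat seedlings, against 5.28, 5.44 and 5.93 in control seedlings. Here the groups overlapped through heat replicate 3, and the difference was -0.49 (SE 0.22). Its ratios of heat over control in the authors' deposited table were 0.756, 0.666 and 0.718. EXPA8 and EXPA1 are both published targets of the growth-promoting factor HBI1, whose own values are given below.

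EXPA5, which is induced by brassinosteroids and promotes growth, read 4.25, 3.93 and 4.20 in heat seedlings, against 4.03, 4.49 and 4.18 in control seedlings. The groups interleaved, and the difference of -0.10 (SE 0.15) was smaller than the SD of either group (0.17 in heat seedlings and 0.23 in control seedlings). Its sign turned with the scaling, to 0.01 when each array was centred on its median, to 0.04 under quantile scaling and to 0.07 under cyclic loess. EXPA2, best known from germinating seeds, read 2.17, 2.54 and 2.47 in heat seedlings, against 1.80, 2.44 and 1.81 in control seedlings. All of its values lay below the array medians, where no detection call separates signal from background, and control replicate 2 alone reached the heat range. Its difference was 0.37 (SE 0.20), and 0.59 without control replicate 2.

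**Figure D2:**
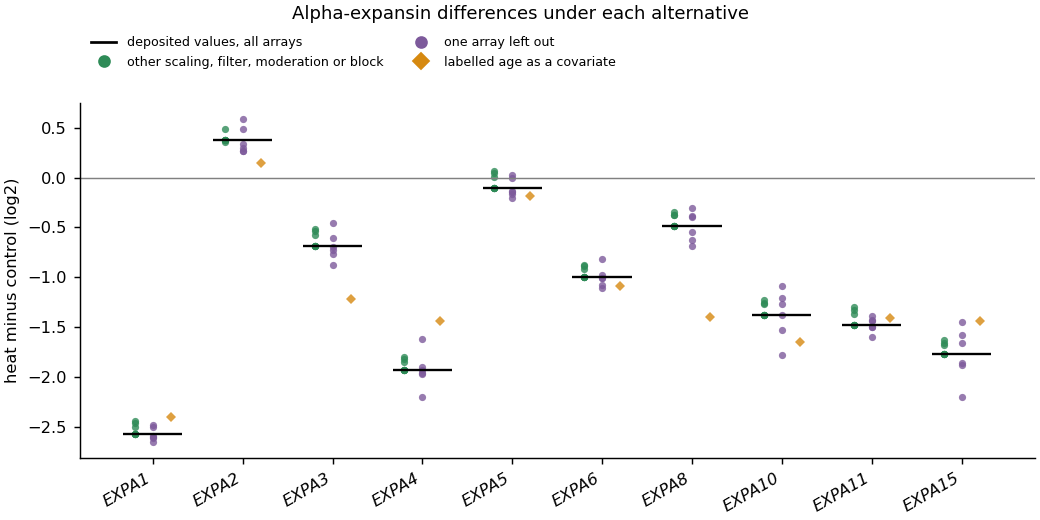
Heat minus control difference on the log2 scale (vertical axis) of each alpha-expansin (horizontal axis) with the deposited values (black bar), under other scalings, filters, moderation or the replicate block (green), with 1 array left out (violet) and with labelled age added to the fit (orange). EXPA1 stays between -2.65 and -2.40 throughout, EXPA5 lies on both sides of 0, and EXPA3, EXPA4 and EXPA8 shift most when the labelled age enters.

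The 5 members past the genome-wide threshold were EXPA1, EXPA4, EXPA6, EXPA11 and EXPA15. EXPA1, EXPA4 and EXPA11 passed with any single array left out. The count was 3 without any one of the heat arrays, where EXPA6 and EXPA15 no longer passed, and EXPA15 also failed without control replicate 1 or 3. EXPA10 passed as lower without control replicate 1, and with all arrays when dim probe sets were left out or the moderation used a trend. EXPA2 passed as higher without control replicate 2. With labelled age added to the fit, 1 member (EXPA1) passed, and 139 of all probe sets passed (10 falls and 129 rises), against 1442 without it (909 falls and 533 rises).

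With single arrays left out, EXPA1 lay between -2.65 and -2.48 and EXPA11 between -1.60 and -1.39. EXPA6 lay between -1.11 and -0.82 and EXPA3 between -0.88 and -0.46. Wider ranges belonged to the genes with spread-out controls: -2.21 to -1.62 in EXPA4, -2.21 to -1.45 in EXPA15 and -1.78 to -1.08 in EXPA10. EXPA8 lay between -0.68 and -0.30. With labelled age added, the difference was -1.22 in EXPA3 (SE 0.43), -1.44 in EXPA4 (SE 0.57), -1.40 in EXPA8 (SE 0.30) and -2.40 in EXPA1 (SE 0.29). Without labelled age these SEs were 0.21, 0.27, 0.22 and 0.13.

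The control arrays spread more than the heat arrays in most of the 10 members. The SD among control arrays exceeded that among heat arrays in 9 of 10 members (EXPA8 had near-equal SDs of 0.335 in both groups), against 62.1% of all probe sets. It did so in 8 of 13 probe sets of the other alpha-expansins (61.5%). For beta-expansins and expansin-like genes it did so in 5 of 9 (55.6%). The median SD of the members was 0.16 among heat arrays and 0.35 among control arrays, against 0.14 and 0.18 over all probe sets.

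Members split into distinct orders over the control arrays. EXPA1, EXPA4, EXPA11 and EXPA15 were highest on control replicate 1 and lowest on control replicate 2, an order found in 19.2% of all probe sets. EXPA2, EXPA5, EXPA6 and EXPA10 had the reverse order, highest on control replicate 2 and lowest on control replicate 1 (16.8% of all probe sets). EXPA3 and EXPA8 were highest on control replicate 3 and lowest on control replicate 1 (11.5%). Averaged over the 10 members these orders nearly cancelled: the mean log2 level was 4.26, 4.13 and 4.27 in heat seedlings, against 5.28, 5.29 and 5.41 in control seedlings. Matched over all arrays after subtraction of each gene's own mean, EXPA3 and EXPA8 were the closest pair, with a root-mean-square gap of 0.235 on the log2 scale. EXPA4 and EXPA15 followed at 0.30, and EXPA1 and EXPA2 were farthest apart at 1.51.

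**Figure D3:**
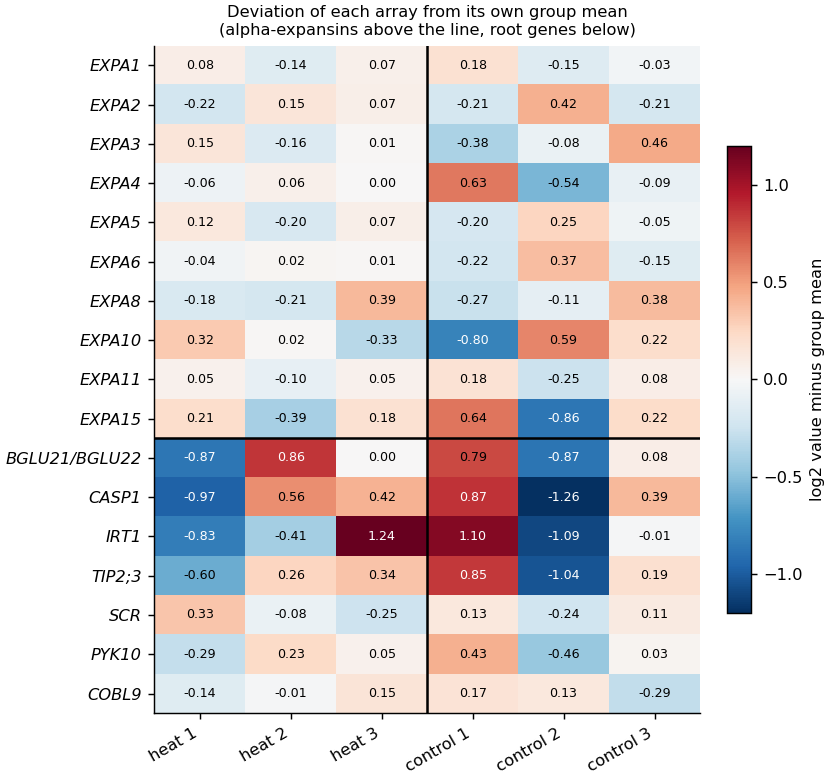
Log2 value of each array minus the mean of its own group, for the 10 alpha-expansins (above the line) and 7 root-gene probe sets (below it), with heat arrays left of control arrays. Control replicate 1 is high and control replicate 2 low for EXPA4, EXPA15 and most root genes, while EXPA10 shows the reverse.

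Root-expressed genes varied between arrays along with some members. A list of 8 root genes on 7 probe sets, chosen after the PYK10 values were seen, held the beta-glucosidases PYK10, BGLU21 and BGLU22, the Casparian strip gene CASP1, the iron transporter IRT1, the aquaporin TIP2;3, the endodermal factor SCR and COBL9. Of the 7 probe sets, 6 (all but COBL9) were highest on control replicate 1 and lowest on control replicate 2, the order of EXPA1, EXPA4, EXPA11 and EXPA15. The list's mean log2 level was 4.11, 4.79 and 4.87 in heat seedlings, against 6.01, 4.70 and 5.46 in control seedlings, and its summed linear signal ran from 529 to 802 in heat seedlings and from 1048 to 2097 in control seedlings. In the limma fit 3 of the 7 probe sets fell, where 4.00% of all probe sets did. They were PYK10 (-1.17, SE 0.24, adjusted p = 0.0287), SCR (-1.09, SE 0.18, adjusted p = 0.0130) and the probe set shared by BGLU21 and BGLU22 (-2.20, SE 0.51, adjusted p = 0.0492). The lowest value on an array lay between 0.92 and 1.03, so no marker could read as 0.

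On the heat arrays the match held for some of these members only. The probe set of BGLU21 and BGLU22 was 0.87 below its group mean on heat replicate 1 and 0.86 above it on heat replicate 2. EXPA4 was also lowest on heat replicate 1 and highest on heat replicate 2, with small deviations of -0.06 and 0.06. EXPA1, EXPA11 and EXPA15 were instead lowest on heat replicate 2.

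Control replicate 2 had the lowest root level of the control arrays. Its mean over the list (4.70) lay within the range of the heat arrays. Its summed signal (1048), most of it from PYK10, lay above theirs, as did PYK10, SCR and the probe set of BGLU21 and BGLU22. CASP1 (4.61), IRT1 (2.82) and COBL9 (2.72) lay within the range of the heat arrays on control replicate 2. The aquaporin gene of the list (3.16) lay below all heat arrays there. On that array EXPA1 read 6.92, against 4.35 to 4.57 on the heat arrays. EXPA4 read 5.88 there against at most 4.55 in heat seedlings, EXPA11 4.67 against at most 3.50, and EXPA15 5.24 against at most 4.54. The gap was narrowest for EXPA15 (0.70) and widest for EXPA1 (2.35). The part of the root genes in these differences was not tested.

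Of 15 further alpha-expansin genes, 11 had a probe set of their own and 4 shared one in pairs, making 13 probe sets, 7 of which had a mean below the highest array median. Among them 3 fell, 0 rose and 10 did not pass in the limma fit, where 4.00% of all probe sets fell and 2.34% rose. Their median difference was -0.21 (-0.01 over all probe sets). EXPA9 fell by 1.43 (SE 0.31, adjusted p = 0.0352). EXPA17, which is needed for lateral root formation, fell by 0.88 (SE 0.17, adjusted p = 0.0226), and EXPA13 fell by 0.70 (SE 0.16, adjusted p = 0.0485). The EXPA13 call was lost under each other scaling (adjusted p 0.0697 to 0.0906), with a trend (adjusted p = 0.0624) and with robust moderation (adjusted p = 0.0509). All heat arrays of EXPA9 lay under the array medians: it read 1.89, 2.56 and 2.32 in heat seedlings, against 4.07, 2.99 and 4.00 in control seedlings.

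The calls of this branch also moved with single arrays. The number that passed was 0 without heat replicate 1, heat replicate 3, control replicate 1 or control replicate 3, 1 without heat replicate 2, and 6 without control replicate 2 (4 falls and 2 rises). EXPA9, EXPA13 and EXPA17, along with EXPA14, had the control order of EXPA1, highest on replicate 1 and lowest on replicate 2. The root hair genes EXPA7 and EXPA18 read 2.47 ± 0.10 and 3.36 ± 0.45 in heat seedlings, against 2.49 ± 0.04 and 3.59 ± 0.31 in control seedlings (SD, n = 3 each), differences of -0.02 (SE 0.11) and -0.23 (SE 0.25) that did not pass. EXPA21 to EXPA26 lie side by side in the reference annotation, and their 4 probe sets together spanned 1.45 to 2.66 on the log2 scale over all arrays.

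Among 9 probe sets for the 10 beta-expansin and expansin-like genes, 0 passed in the limma fit in either direction, with 1 at an unadjusted p below 0.05, where 21.4% of all probe sets were. Their median difference was 0.14, and 5 of the 9 had a mean below the highest array median. EXPB1 read 2.95, 3.54 and 3.15 in heat seedlings, against 4.94, 3.28 and 3.75 in control seedlings. Its groups overlapped, and the difference was -0.77 (SE 0.39, limma adjusted p = 0.308), or -0.30 without control replicate 1. EXPB3 read 5.34, 5.30 and 5.64 in heat seedlings, against 6.65, 5.73 and 5.89 in control seedlings. The heat arrays lay below the control arrays by 0.09, for a difference of -0.66 (SE 0.24, adjusted p = 0.166) that passed only without control replicate 2 (-0.84, adjusted p = 0.0452) and was -0.38 without control replicate 1 (adjusted p = 0.283). Whether the branches differ in their response was not tested.

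**Figure D4:**
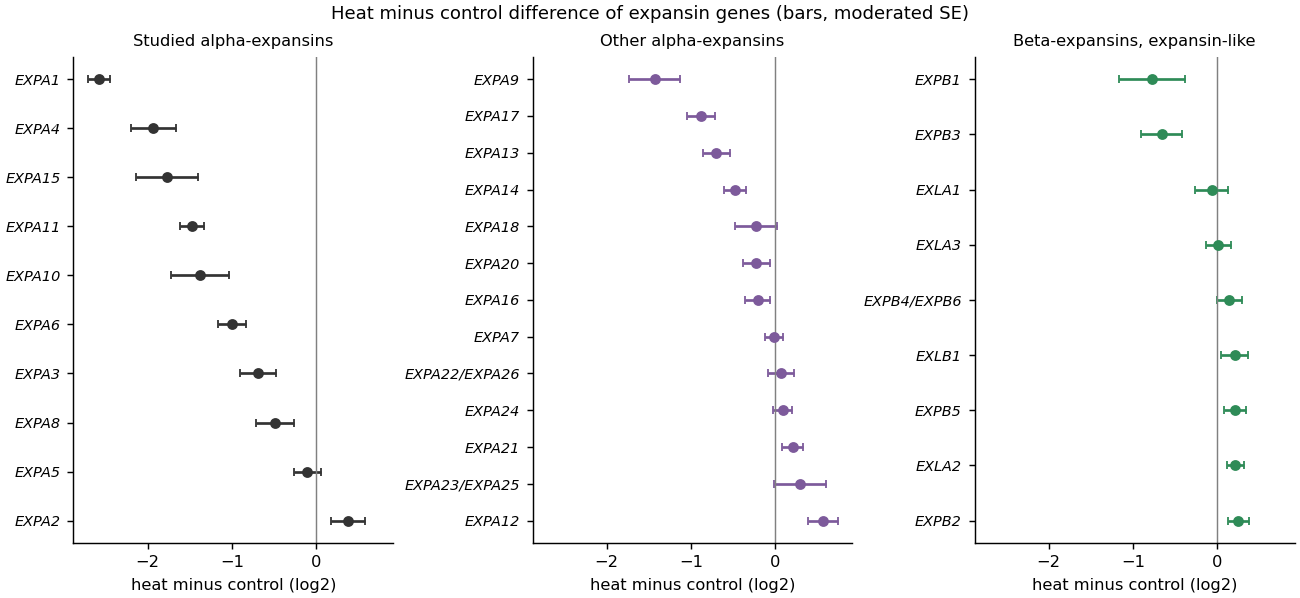
Heat minus control difference on the log2 scale (horizontal axis) with its moderated SE (bars) for each probe set of the 10 studied alpha-expansins (left), the other alpha-expansins (middle) and the beta-expansins and expansin-like genes (right). Most of the studied members lie left of 0, down to -2.58 for EXPA1, whereas the other panels reach -1.43 (EXPA9) and -0.77 (EXPB1).

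Expansins act in walls acidified by plasma membrane proton pumps of the AHA family, which SAUR proteins activate. The acid-growth list held 15 genes, of which 14 had a probe set: 11 pumps, SAUR63, SAUR15 and a clade D phosphatase. None passed in the limma fit (0 of 14). In the same fit 5 had an unadjusted p below 0.05, 4 of them lower, where 21.4% of all probe sets had one. In 4 of the 14 all heat arrays lay below all control arrays and in 1 above, against 15.8% and 10.4% of all probe sets. The median difference of the list was -0.04, but 8 of the 14 had a mean below the highest array median. AHA2, a main pump of seedlings and roots, read 7.40, 7.98 and 7.76 in heat seedlings, against 9.27, 8.26 and 8.58 in control seedlings. Its heat arrays all lay below its control arrays, and the difference was -0.99 (SE 0.27, limma adjusted p = 0.0784). Without control replicate 2 the AHA2 difference was -1.21 (adjusted p = 0.0155), and without control replicate 1 it was -0.71 (adjusted p = 0.136). AHA3 averaged 5.52 ± 0.14 in heat seedlings and 5.91 ± 0.13 in control seedlings (SD, n = 3 each), a difference of -0.39 (SE 0.12, adjusted p = 0.124).

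Factors known to act upstream of expansin genes moved in both directions. Of 17 growth regulators, 15 had a probe set, with BZR1 and BES1 sharing 1, which gave 14 probe sets. In the limma fit 4 fell, 2 rose and 8 did not pass, where 4.00% of all probe sets fell and 2.34% rose. The list's median difference was -0.27. BEE2, a brassinosteroid-induced bHLH factor related to HBI1, read 4.10, 3.78 and 4.15 in heat seedlings, against 6.14, 6.13 and 6.54 in control seedlings. The groups were 1.98 apart. BEE2 fell by 2.26 (SE 0.16, adjusted p = 0.000171) and passed in all 15 alternatives run. HBI1 itself read 4.29, 4.34 and 4.36 in heat seedlings, against 5.10, 5.13 and 5.70 in control seedlings. It fell by 0.99 (SE 0.17, adjusted p = 0.0162), but not past the threshold without any one of the heat arrays (adjusted p 0.0723 to 0.0752).

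The DELLA proteins RGA and GAI, repressors of growth that gibberellin removes, fell at the transcript level. RGA read 3.55, 3.55 and 3.62 in heat seedlings, against 5.12, 4.63 and 5.41 in control seedlings, and fell by 1.48 (SE 0.19, limma adjusted p = 0.00447). GAI read 3.59, 3.58 and 3.44 in heat seedlings, against 5.35, 4.47 and 5.42 in control seedlings. It fell by 1.54 (SE 0.24, adjusted p = 0.0109), a call lost without heat replicate 2 (adjusted p = 0.0549) or heat replicate 3 (adjusted p = 0.0661). Both genes were highest on control replicate 3 and lowest on control replicate 2, an order found in 22.0% of all probe sets. EXPA4 and EXPA15 were also lowest on control replicate 2, but highest on control replicate 1.

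The phytochrome-interacting factors, which promote elongation, went the other way. PIF5 read 5.02, 4.64 and 5.22 in heat seedlings, against 3.54, 3.79 and 3.64 in control seedlings, and rose by 1.31 (SE 0.17, limma adjusted p = 0.00389). PIF4 read 2.79, 2.67 and 2.97 in heat seedlings, against 2.16, 2.24 and 2.13 in control seedlings. Its control arrays lay below the array medians and its heat arrays near them, where no detection call separates signal from background. PIF4 rose by 0.63 (SE 0.12, adjusted p = 0.0213) but did not pass without heat replicate 1 or 3 or control replicate 1 or 3 (adjusted p up to 0.0855). Leaving out heat replicate 3 cut the passing regulators to 3, with 2 falls and 1 rise. The repressor IBH1, which binds HBI1, was chosen after its values were seen: it read 3.53, 3.60 and 3.39 in heat seedlings, against 4.19, 3.75 and 4.68 in control seedlings (-0.70, SE 0.22, adjusted p = 0.120).

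**Figure D5:**
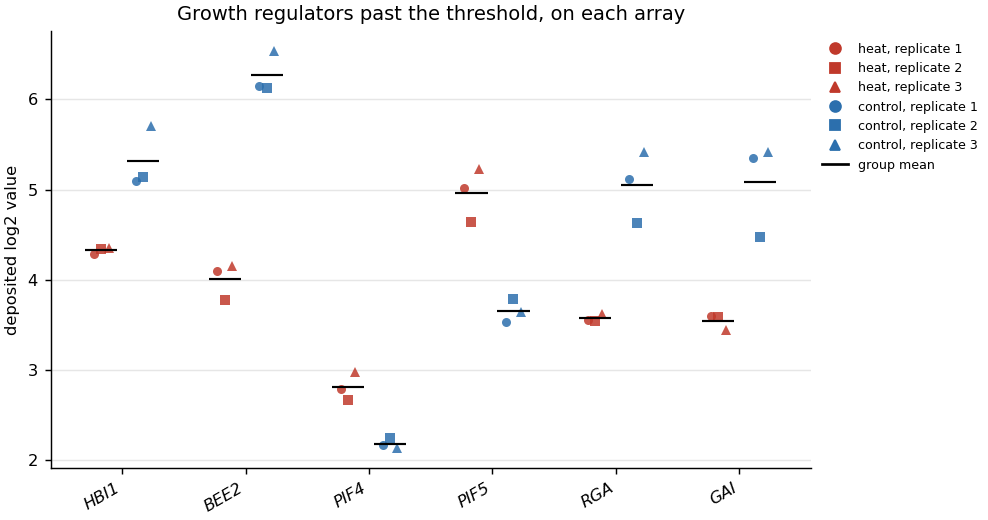
Deposited log2 value (vertical axis) on each array of the 6 growth regulators past the threshold (horizontal axis), with heat arrays in red left of control arrays in blue, symbols for the replicate number and a black bar for the group mean. HBI1, BEE2, RGA and GAI are lower on all heat arrays, whereas PIF4 and PIF5 are higher on all of them.

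Genes outside the family with the profile closest to EXPA1 were sought over the 6 arrays by the root-mean-square gap between centred log2 values, with 1 probe set per locus. The 5 nearest were the homeobox gene HB5 (gap 0.20), the GRAS factor HAM1 (0.21), BEE2 (0.24), the histone H2B gene HTB1 (0.27) and the fatty acid elongase gene KCS19 (0.28), all nearer than the closest family member, EXPA4 (0.42). HB5 read 2.36, 2.04 and 2.58 in heat seedlings, against 4.66, 4.41 and 4.72 in control seedlings. The mean centred profile of the 10 members was matched most closely by the receptor kinase AT3G23750 (BARK1, 0.09), followed by the receptor-like kinase RKL1, the phototropism protein RPT2, the transporter ABCG5 and SKU5, a membrane-anchored wall protein that affects root growth direction (each 0.10). AT3G23750 read 4.11, 3.80 and 3.96 in heat seedlings, against 5.05, 4.90 and 5.01 in control seedlings. Since most of a profile over these arrays is the difference between the groups, likeness here restates that difference.

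Neighbouring genes were read for the members in the order of the reference annotation. Of the 20 protein-coding neighbours, 15 had a probe set and 2 passed in the limma fit, both as lower, where 4.00% of all probe sets fell. RTFL8, which encodes a small peptide of the ROTUNDIFOLIA family and lies next to EXPA4, read 2.47, 2.33 and 2.64 in heat seedlings, against 4.61, 3.90 and 4.59 in control seedlings. It fell by 1.89 (SE 0.21, adjusted p = 0.00185), beside a difference of -1.93 for EXPA4. The other was AS1, a leaf-patterning MYB factor next to EXPA3, which fell by 0.84 (SE 0.19, adjusted p = 0.0476). The other measured neighbours did not pass.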

How the data were processed

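Total RNA of seedlings was measured on Affymetrix arrays, 3 heat and 3 control. The deposited values are on a log2 scale, and RMA is the tool named in the submitters' processing notes, with no version or background method. The ratio columns of the authors' table set a heat array over the control array of the same number and matched the log2 values to a relative gap of 6.26e-05. Neither table gives a detection call, and the number of arrays limits the precision. Another 6 columns of per-array values in that table were not used.

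Probe sets were named through the authors' gene identifiers and a RefSeq table of the TAIR10.1 assembly: 20653 had 1 identifier (20482 matched), 959 several and 1134 none. The 64 control probe sets were left out. Heat minus control was fitted over 22746 probe sets with limma 3.58.1 in R 4.3.3 (group only, two-sided, Benjamini-Hochberg, threshold 0.05). Each adjusted p comes from this fit, or from its refit where the text names an alternative, and each SE is a moderated standard error. For each locus the brightest probe set matching it alone was used, or else a shared one. The pipeline was tested on simulated data. Nothing says that replicates were grown separately, so the p-values cover the spread among these samples alone, which may be technical.

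Members and lists were chosen with earlier results of these data known. In each further list the text names every gene past the threshold and the 2 largest differences, plus the 5 closest profiles. SAUR19, PRE5 and PRE6 had no probe set. Promoter motifs and protein identity were not analysed here.

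The 15 alternatives were other scalings, filters on dim probe sets, moderation with a trend or robustly, the replicate block, the labelled age and each array left out.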

Additional observations from a re-analysis of the deposited data

How the results depend on the processing

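With the deposited values, 909 probe sets fell and 533 rose. Centring the arrays on their medians moved the median difference of all probe sets from -0.01 to 0.10 and gave 679 falls and 671 rises; cyclic loess gave 688 and 713. Deviations of same-numbered heat and control arrays from their group means correlated at -0.26, -0.235 and -0.244. Deviations from a mean of 3 arrays constrain each other, so these values cannot decide whether replicate numbers pair the arrays. The replicate block left 806 probe sets past the threshold in place of 1442, and leaving out single arrays gave 654 to 3727. Members past the threshold numbered 3 to 6 with an array left out and 1 with labelled age in the fit. The other alpha-expansins numbered 0 to 6 with an array left out, 0 with the replicate block and 0 with age in the fit. For beta-expansins and expansin-like genes the count was 0 to 1 with an array left out. Acid-growth genes numbered 0 to 2 with an array left out, 1 with moderation by trend and 1 with probe sets under the 40th percentile left out. Growth regulators numbered 3 to 8 with an array left out and 1 with age in the fit. With age in the fit 139 probe sets passed in all. Labelled age, which runs together with treatment, raised the SE of EXPA11 from 0.14 to 0.32 and that of HSP101 from 0.23 to 0.52. Beyond such larger SEs and the fewer arrays or degrees of freedom that some alternatives leave, the cause of these shifts was not tested.

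EXPA2 had no value with probe sets under the 40th percentile left out. Of the other 135 member differences, 131 were negative; the 4 others were of EXPA5. Planned use of all probe sets per locus changed nothing, since each member has 1. Among 14 other named genes no difference turned sign in 210 refits, with 40 calls lost and 5 gained. The arrays give no detection call, so EXPA2, the dim alpha-expansins and other dim genes such as PIF4 may lie at background.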
